A study of Mus musculus with 2 samples.

Results

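The genes described here build the mitotic spindle, divide the cell and condense the chromosomes. They are 38 genes chosen by symbol, out of 53241 distinct symbols in the mRNA sequencing of liver from 1 control and 1 iFIRKO sample. The choice was made with earlier results of these data known. They fall into 5 roles, with 12 kinesin motors, 9 other spindle microtubule proteins, 6 cytokinesis genes, 3 genes of centriole duplication and Aurora A activation, and 8 genes of chromosome condensation and separation. iFIRKO mice (genotype Adipoq-CreERT2; Insr flox/flox) lose the insulin receptor gene, *Insr*, in adipocytes after tamoxifen, because the adiponectin promoter drives the inducible Cre. The control sample is labelled WT, while the methods of the study describe control mice as IR flox/flox without Cre. Both genotypes were male, received tamoxifen intraperitoneally at 100 mg/kg on 5 consecutive days from 7 weeks of age, and gave tissue 3 days after dosing ended. The liver itself was not the target of the deletion, and the level of *Insr* was 4246 normalized reads in control liver and 3692 in iFIRKO liver (log2 fold change -0.20, interval -0.29 to -0.11). How many mice stand behind each library is not given in the sources used here.

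Kinesins are motors that walk along or take apart microtubules, and those listed here push spindle poles apart, move chromosomes and organise the midzone between separating chromosomes. Condensin and topoisomerase II fold and untangle the replicated chromosomes, and separase cuts the cohesin that holds sister chromatids together. Citron kinase, anillin, the RhoA activator *Ect2* and the centralspindlin complex then set the contractile ring and the final cut between the daughter cells. Most of these genes are transcribed in late S phase, G2 and M phase only, so in the adult liver, where few hepatocytes divide, their mRNA is scarce.

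Values are normalized reads, the scaled read count per gene that the authors deposited on a log2 scale, returned to the linear scale. The control library held an estimated 21138484 read pairs and the iFIRKO library 20652740. Hepatocyte genes such as *Alb*, with 4167154 and 3944155 normalized reads, were abundant in each. The fold change is iFIRKO over control, each with 4.18 normalized reads added, and is given on the log2 scale. The interval beside it is an exact 95% Clopper-Pearson interval of the plain ratio on estimated read pairs, rounded to whole pairs. It covers counting error only and compares 2 libraries, not 2 genotypes, since each genotype has 1 library and no test between genotypes is possible. Genes reaching 41.8 normalized reads, which is 1 CPM, in either library were tested, and a difference past 1.5-fold, 0.58 on the log2 scale, was called higher or lower. In whole liver, more dividing cells and more of an mRNA per cell cannot be told apart.

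Nearly all of these mitotic genes had more reads in the iFIRKO liver. All 38 passed the minimum, and 37 of them had a log2 fold change above 0, *Cit* being the exception. By the 1.5-fold threshold 20 of the 38 (52.6%) were called higher in iFIRKO and 0 were called lower. Of the 20, *Cep55* reached the minimum in the iFIRKO library only (40.4 normalized reads in control, 68.1 in iFIRKO), and its interval included 0. Among all 13391 genes tested, 4.46% were higher and 7.29% lower. Among the 7495 tested genes with a mean level between 54.0 and 980.1 normalized reads, the range that the mitotic genes span, 4.66% were higher and 8.11% lower. Their median log2 fold change was 0.66, against 0.01 over all genes tested. For 26 of the 38 the whole counting interval lay above 0, as it did for 13.5% of the genes in the same range of levels. The sum over the 38 genes was 8181 normalized reads in control (a CPM of 194.8) and 13130 in iFIRKO (a CPM of 315.8), and its log2 ratio was 0.68 (interval 0.63 to 0.74). At the threshold, *Kif11* at 0.64 was the lowest member called higher and *Tacc3* at 0.54 the highest not called.

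**Figure D1:**
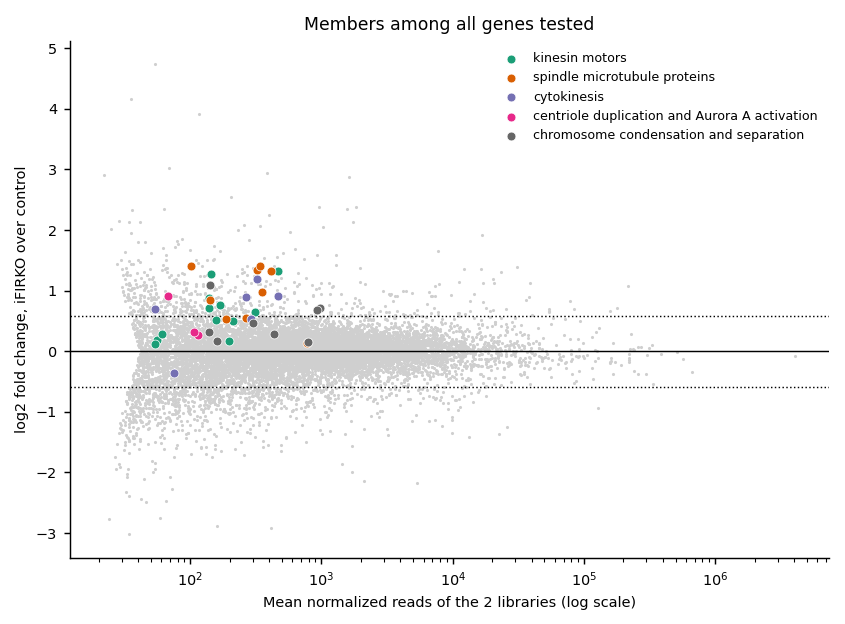
Log2 fold change (iFIRKO over control) against the mean normalized reads of the 2 libraries on a log axis for 13391 tested genes in grey, with the 38 mitotic genes coloured by role. Dotted lines mark 1.5-fold, and 20 of the 38 coloured points lie above the upper line and 0 below the lower one.

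The sequence around the transcription start of many of these genes carries a shared feature. The cell cycle genes homology region (CHR) is a short promoter element, often found together with CCAAT boxes. Repressor and activator complexes at it time transcription to G2 and M phase. The genes were chosen for their part in mitosis, so a high share with this element is not independent of the choice. Promoter windows of 300 bases, 250 before and 50 from the annotated start, were taken from RefSeq on GRCm38.p6, with 33 of the 38 genes matched by symbol. *Bora*, *Dlgap5*, *Kif20a*, *Smc4* and *Tpx2* had no entry. The CHR letters searched were TTTGAA and TTCGAA, on both strands. They were present in 27 of the 33 genes (81.8%), against 21.7% of all 27025 genes with a window and 17.1% of the 9894 tested genes with one. Within 50 bases of the start, a distance chosen after the files were opened, 21 of the 33 genes (63.6%) had a match, against 6.45% of all genes and 4.85% of the tested ones. CCAAT on either strand was found in 21 of the 33 (63.6%) against 41.1% of all genes, and was as frequent in genes of DNA replication (66.7%), of the kinetochore (72.0%) and of the CDK1-cyclin B, Aurora and APC/C list (86.7%). A CHR match near the start together with a CCAAT match in the window occurred in 17 of the 33 (51.5%) and in 2.76% of all genes. The E2F letters TTTCCCGC, TTTGGCGC, TTTGCCGC and TTTCGCGC, on both strands, were found in 4 of the 33 (12.1%), *Kif15*, *Kif18a*, *Ncapd2* and *Ncapg*, against 2.60% of all genes. None of the 4 was among the genes called higher.

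The stretch from 70 bases before to 50 bases from the start is shown for all 12 genes called higher that hold a CHR match near the start, in order of fold change, and then for *Top2a* and *Ckap5*, which hold the same letters and whose levels were close between the libraries. Each is written 5′ to 3′ on the strand of the gene, with matches to CHR (TTTGAA, or TTCAAA for the opposite strand) and to CCAAT (or ATTGG) in capitals.
Hmmr, chr11:40733388-40733507, reverse strand: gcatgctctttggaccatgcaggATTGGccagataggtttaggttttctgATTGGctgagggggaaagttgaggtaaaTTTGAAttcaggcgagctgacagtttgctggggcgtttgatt
Aspm, chr1:139454703-139454822, forward strand: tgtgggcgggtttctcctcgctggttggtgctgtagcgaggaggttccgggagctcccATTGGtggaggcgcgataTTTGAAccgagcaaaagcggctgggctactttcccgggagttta
Ckap2l, chr2:129297163-129297282, reverse strand: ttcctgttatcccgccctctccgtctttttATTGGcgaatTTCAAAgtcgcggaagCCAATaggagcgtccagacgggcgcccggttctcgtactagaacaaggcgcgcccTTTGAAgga
Ect2, chr3:27153829-27153948, reverse strand: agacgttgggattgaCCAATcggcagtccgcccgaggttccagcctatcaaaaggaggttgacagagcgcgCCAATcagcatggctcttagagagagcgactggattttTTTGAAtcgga
Espl1, chr15:102296223-102296342, forward strand: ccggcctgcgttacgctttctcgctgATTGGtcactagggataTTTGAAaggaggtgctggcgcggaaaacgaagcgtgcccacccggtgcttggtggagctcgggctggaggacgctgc
Prc1, chr7:80294381-80294500, forward strand: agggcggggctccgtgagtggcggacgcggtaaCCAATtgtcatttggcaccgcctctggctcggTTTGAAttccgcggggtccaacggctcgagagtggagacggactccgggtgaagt
Anln, chr9:22389157-22389276, reverse strand: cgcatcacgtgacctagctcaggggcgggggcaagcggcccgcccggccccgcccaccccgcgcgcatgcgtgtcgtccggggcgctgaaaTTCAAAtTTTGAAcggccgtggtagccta
Kif18b, chr11:102925075-102925194, reverse strand: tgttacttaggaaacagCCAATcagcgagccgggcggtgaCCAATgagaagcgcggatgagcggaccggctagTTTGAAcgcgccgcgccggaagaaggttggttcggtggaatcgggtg
Kif20b, chr19:34922288-34922407, forward strand: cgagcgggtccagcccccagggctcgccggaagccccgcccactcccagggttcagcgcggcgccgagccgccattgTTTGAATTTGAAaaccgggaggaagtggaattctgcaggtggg
Kif4, chrX:100625995-100626114, forward strand: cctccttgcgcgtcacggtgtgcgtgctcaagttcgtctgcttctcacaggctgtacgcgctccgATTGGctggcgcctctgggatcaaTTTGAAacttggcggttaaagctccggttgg
Cep55, chr19:38054914-38055033, forward strand: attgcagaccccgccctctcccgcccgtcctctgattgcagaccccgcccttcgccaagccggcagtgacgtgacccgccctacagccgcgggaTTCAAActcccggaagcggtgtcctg
Kif11, chr19:37376312-37376431, forward strand: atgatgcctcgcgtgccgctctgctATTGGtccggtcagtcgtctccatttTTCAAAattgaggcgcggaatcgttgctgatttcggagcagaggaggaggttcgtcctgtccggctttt
Top2a, chr11:99024140-99024259, reverse strand: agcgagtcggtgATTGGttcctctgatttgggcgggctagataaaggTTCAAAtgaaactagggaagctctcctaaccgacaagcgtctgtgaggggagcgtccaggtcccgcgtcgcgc
Ckap5, chr2:91526692-91526811, forward strand: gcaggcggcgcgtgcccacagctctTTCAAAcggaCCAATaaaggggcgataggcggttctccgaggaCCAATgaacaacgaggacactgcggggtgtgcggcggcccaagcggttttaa

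*Anln*, *Kif20b* and *Cep55* had no CCAAT or ATTGG match in the window, and in *Ckap5* the CHR match came first. In the other genes shown a CCAAT or ATTGG match stood upstream of the CHR match nearest the start. In *Hmmr* the CHR letters lay 9 to 14 bases from the start with 5 CCAAT matches in the whole window. In *Aspm* they lay at bases 7 to 12 with 3, and in *Kif18b* at bases 4 to 9 with 2. The 21 genes with a CHR match near the start had a median log2 fold change of 0.70, from 0.13 to 1.41, and 12 of them were called higher. The 12 genes without one had a median of 0.30, from -0.36 to 1.32, and 3 of them, *Ckap2*, *Kif2c* and *Mki67*, were called higher. The 5 genes with no promoter entry are in neither set, and all were called higher. They were *Kif20a* (1.33), *Tpx2* (0.98), *Bora* (0.92), *Dlgap5* (0.84) and *Smc4* (0.68). The difference between the 2 sets was not tested. For *Kif2c* and *Kif14* the RefSeq start lay 3867 and 1505 bases from the GENCODE M21 start. For *Cit* and *Kif4* it lay 378 and 328 bases away. The windows of these genes may not cover the main promoter. A match is a string of letters and not a measured binding site.

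**Figure D2:**
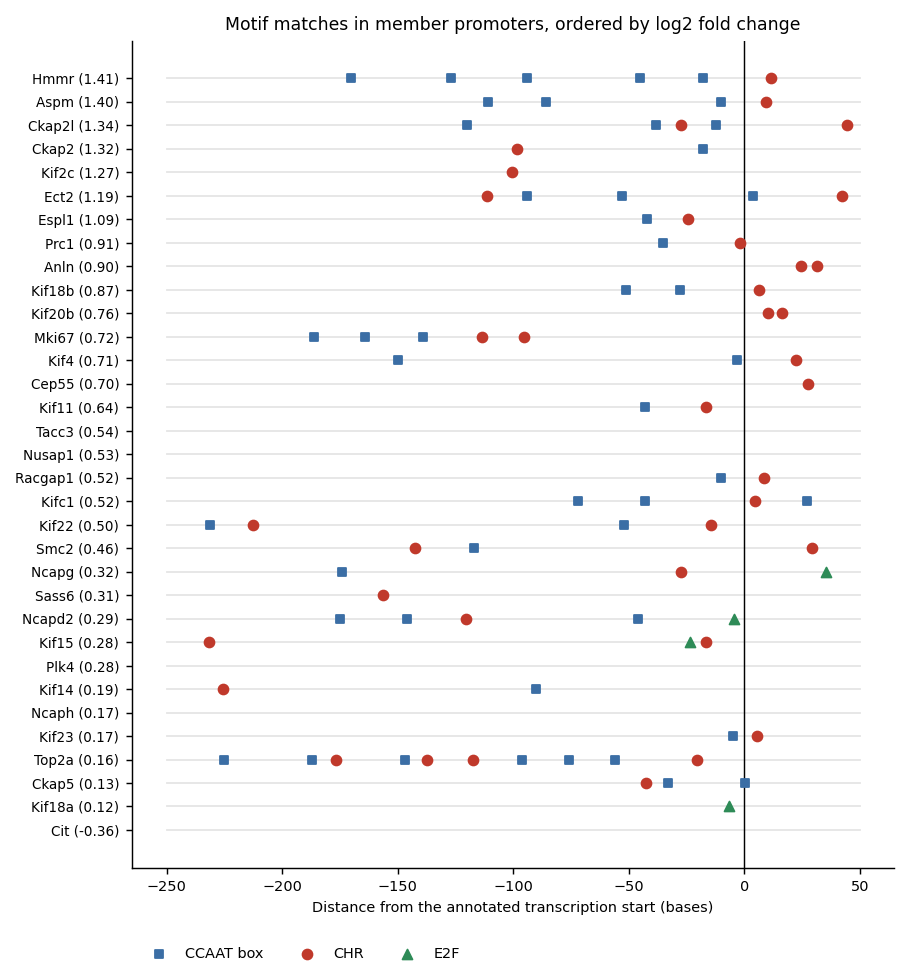
Matches to CHR (circles), CCAAT (squares) and E2F letters (triangles) by distance in bases from the annotated start, in the first promoter window of 33 genes ordered by log2 fold change, which stands beside each name. CHR matches gather near the start in most genes of the upper part, and *Top2a* and *Ckap5* near the bottom carry them too.

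Among the 12 kinesin motors, 6 were called higher and 0 lower, with a median log2 fold change of 0.58 and a range from 0.12 to 1.33. The largest difference was that of *Kif20a*, the motor that carries the chromosomal passenger complex to the midzone, with levels of 263 normalized reads in control and 666 in iFIRKO (log2 fold change 1.33, interval 1.05 to 1.65). *Kif20a* overlaps *Cdc23* on the opposite strand over 1020 bases, and *Cdc23* had 600.1 and 670.2 normalized reads (0.16, interval -0.07 to 0.39). *Kif2c*, which takes microtubules apart at centromeres, had 82.3 and 205 (1.27, interval 0.80 to 1.89). *Kif18b*, which trims astral microtubules, had 96.6 and 180.3 (0.87, interval 0.38 to 1.43), and *Kif20b*, which acts late in cytokinesis, had 123 and 212 (0.76, interval 0.31 to 1.26). The chromokinesin *Kif4*, which brings *Prc1* to the midzone, had 104 and 174 normalized reads (0.71, interval 0.21 to 1.24). *Kif11*, the bipolar motor that separates the poles, had 244 and 383 (0.64, interval 0.31 to 0.99). These 6 motors were higher in the iFIRKO library by more than their counting error.

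Of the other 6 motors, *Kifc1*, a minus-end motor, and *Kif22*, which pushes chromosome arms, had intervals just above 0. *Kifc1* went from 127 to 185 normalized reads between control and iFIRKO (log2 fold change 0.52, interval 0.07 to 1.03), and it shares 635 bases of transcript sequence with *Kifc5b*, so its value is uncertain. *Kif22* rested on 88 and 124 read pairs (0.50, interval 0.11 to 0.92). The intervals of *Kif15* (0.28), *Kif14* (0.19), *Kif23* (0.17) and *Kif18a* (0.12) included 0. *Kif14*, *Kif15* and *Kif18a* each rested on 26 to 33 read pairs per library, where a difference of this size was not detectable. *Kif23*, the motor of centralspindlin, had more reads, 185 and 208 normalized reads, and its interval from -0.25 to 0.59 ended close to the 1.5-fold threshold. Between the related *Kif18a* and *Kif18b* the log2 ratio was 0.77 higher in *Kif18b*, with an interval of the difference from -0.22 to 1.76 that included 0.

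The 9 spindle microtubule proteins had the highest median log2 fold change of the roles, 0.98, with 6 called higher and 0 lower. The log2 ratio of their summed reads was 0.82 (interval 0.71 to 0.93), and that of the cytokinesis genes was also 0.82 (interval 0.67 to 0.98). The difference between roles was not tested. *Hmmr*, which acts at the spindle poles, stood at 183 normalized reads in control and 494 in iFIRKO (1.41, interval 1.08 to 1.79), the largest difference of the 38 genes. *Aspm*, which focuses microtubule minus ends at the poles, had 53.4 and 148 (1.40, interval 0.82 to 2.17). The related *Ckap2* and *Ckap2l* differed in log2 ratio by 0.02 (interval -0.47 to 0.50), with 235 and 593 normalized reads for *Ckap2* (1.32, interval 1.02 to 1.66) and 182 and 468 for *Ckap2l* (1.34, interval 1.0 to 1.72). *Tpx2*, the activator of Aurora A on the spindle, had 236 and 471 (0.98, interval 0.67 to 1.33). *Dlgap5*, which stabilises kinetochore fibres, had 100.0 and 182 (0.84, interval 0.35 to 1.40). *Tacc3* (216 and 316, log2 fold change 0.54) and *Nusap1* (152 and 221, log2 fold change 0.53) fell short of the threshold with intervals above 0. Each overlaps a gene on the opposite strand, *Tmem129* and *Oip5*. *Ckap5*, the microtubule polymerase that works with *Tacc3* and also acts in interphase, had 743 and 816 (0.13, interval -0.07 to 0.34). Its interval left out a 1.5-fold difference, so at this depth *Ckap5* was level within that bound.

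**Figure D3:**
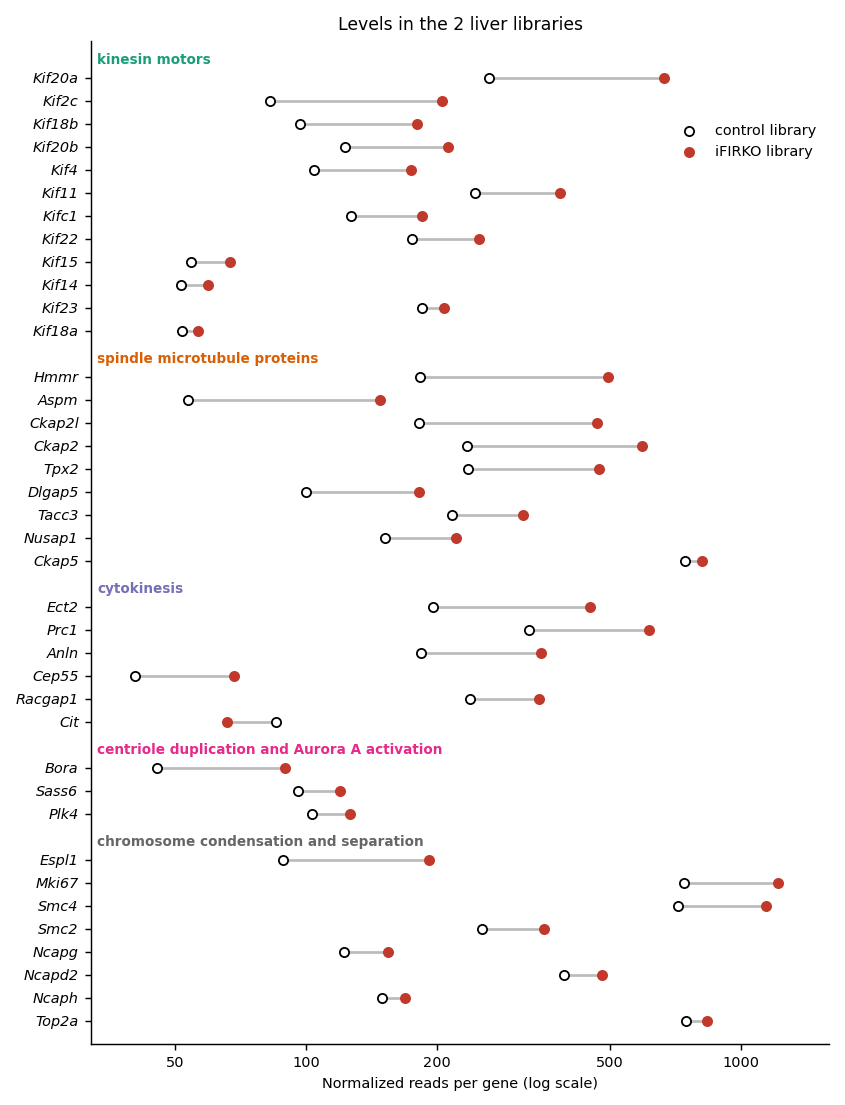
Normalized reads of the 38 genes in the control library (open points) and the iFIRKO library (filled points) on a log axis, grouped by role and ordered within a role by fold change. Levels run from 40.4 in *Cep55* in control to 1221 in *Mki67* in iFIRKO, and *Cit* alone has its open point to the right.

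Of the 6 cytokinesis genes, 4 were called higher and 0 lower, with a median log2 fold change of 0.80. *Ect2*, the exchange factor that switches on RhoA at the division plane, was at 196 normalized reads in control and at 451 in iFIRKO (1.19, interval 0.85 to 1.55). *Prc1*, which bundles midzone microtubules, had 325 and 616 (0.91, interval 0.64 to 1.20), and *Anln*, the anillin of the contractile ring, had 184 and 347 (0.90, interval 0.53 to 1.29). *Cep55*, which recruits the abscission machinery, was called higher with 40.4 and 68.1 normalized reads, but its interval ran from -0.05 to 1.66 and included no difference. *Racgap1*, the partner of *Kif23* in centralspindlin, had 238 and 344 (0.52, interval 0.18 to 0.88). *Cit*, citron kinase, had 85.4 and 65.6 normalized reads (-0.36, interval -1.06 to 0.33), so no difference in either direction was detectable. In pairs picked after their values were seen, which makes the intervals a description, the log2 ratio of *Ect2* exceeded that of *Racgap1* by 0.67 (interval 0.17 to 1.17) and that of *Kif23* by 1.03 (interval 0.48 to 1.58).

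Of the 3 genes of centriole duplication and Aurora A activation, *Bora* was called higher and 0 were lower. *Bora*, the cofactor with which Aurora A activates Plk1, was at 45.4 normalized reads in control and 89.3 in iFIRKO (log2 fold change 0.92, interval 0.20 to 1.75). *Plk4*, the kinase that starts centriole duplication at the G1/S boundary, had 103 and 126 (0.28, interval -0.26 to 0.85). *Sass6*, which forms the centriole cartwheel, had 95.5 and 119.7 (0.31, interval -0.26 to 0.90) and overlaps *Trmt13* and *Gm42893* on the opposite strand. For *Plk4* and *Sass6* neither no difference nor a 1.5-fold difference was outside the interval.

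The 8 genes of chromosome condensation and separation had a median log2 fold change of 0.39, with 3 called higher and 0 lower. *Espl1*, separase, was at 88.4 normalized reads in control and 192 in iFIRKO (1.09, interval 0.60 to 1.68). *Mki67*, which encodes Ki-67, the coat of mitotic chromosomes and a common marker of dividing cells, had 739 and 1221 (0.72, interval 0.53 to 0.91). *Smc4*, an ATPase of condensin, had 716 and 1146 (0.68, interval 0.49 to 0.87). The other subunits of condensin I were closer to level. *Smc2*, the partner ATPase of *Smc4*, had 254 and 352 (0.46, interval 0.13 to 0.81), *Ncapg* had 122 and 154 (0.32, interval -0.17 to 0.84), *Ncapd2* 391 and 479 (0.29, interval 0.01 to 0.57) and *Ncaph* 149 and 169 (0.17, interval -0.28 to 0.65). The subunits overlapped in their intervals, and the log2 ratio of *Smc4* exceeded that of *Ncaph* by 0.50 with an interval from -0.01 to 1.0. *Ncapg* overlaps *Lcorl* on the opposite strand, which had a log2 fold change of 0.51. *Top2a*, topoisomerase II alpha, was at 749 and 836 normalized reads (0.16, interval -0.05 to 0.36), and its interval left out a 1.5-fold difference. *Mki67*, at a like level in control and also set beside it after the values were seen, exceeded *Top2a* in log2 ratio by 0.57 (interval 0.28 to 0.85).

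No source used here says whether strand was used when reads were counted, so reads of overlapping genes on opposite strands cannot be told apart. Exons of 10 of the 38 genes overlap such a gene, and 4 of the 10 were called higher. Besides *Kif20a* these were *Kif4* with *Pdzd11* (684 and 757 normalized reads, 0.15), *Prc1* with *Rccd1* (201 and 227, 0.17) and *Ckap2l* with *Gm14024*, which is listed at 0 in each library. Of the genes not called, *Nusap1* overlaps *Oip5* (30.5 and 64.4, 0.99) and *Kif18a* overlaps *Mettl15* (142 and 206, 0.53), and these values are uncertain. *Kif22* overlaps *Gm31749*, which had 0 and 2.01 normalized reads.

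**Figure D4:**
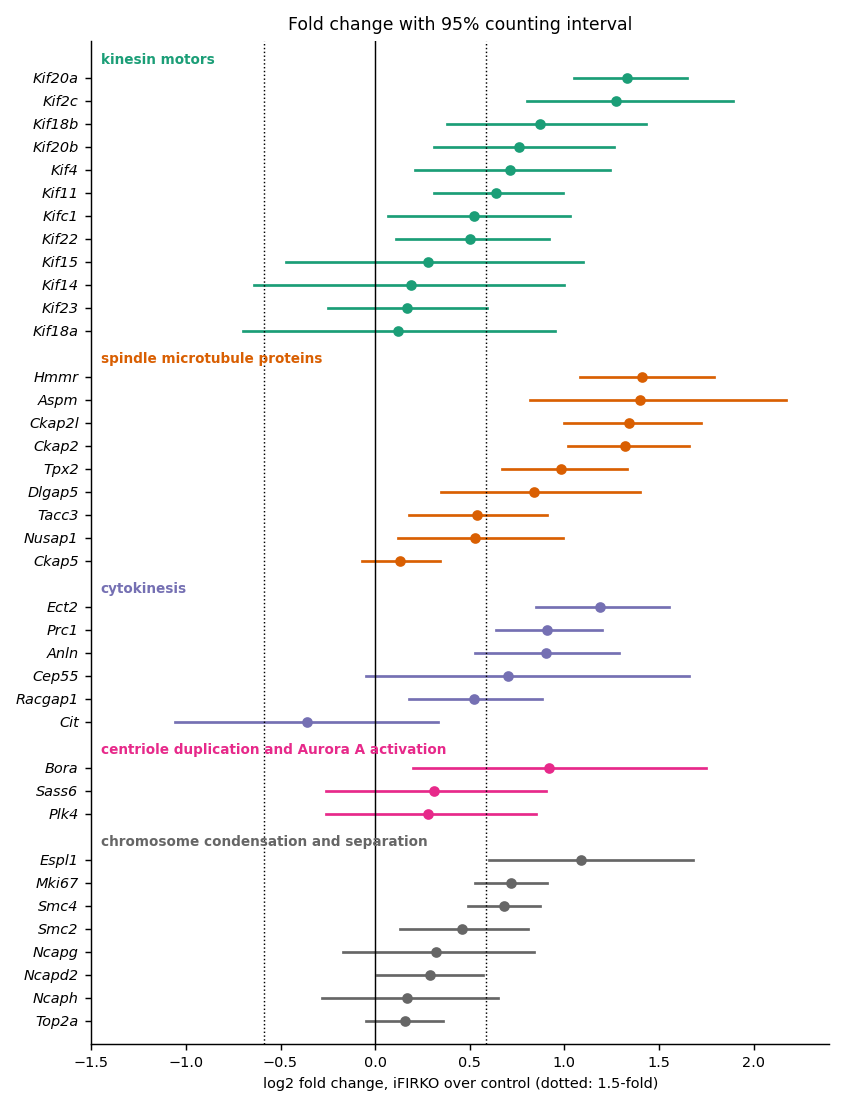
Log2 fold change (iFIRKO over control) of the 38 genes with exact 95% counting intervals, by role, with dotted lines at 1.5-fold in each direction. Intervals of 26 genes lie wholly above 0, and those of *Top2a* and *Ckap5* end below the upper dotted line.

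Levels were compared between genes per kilobase of the longest annotated protein-coding transcript in GENCODE M21. In control *Smc4* was the most abundant at 166 normalized reads per kilobase, then *Top2a* at 143, *Ckap5* at 112 and *Prc1* at 107, and *Aspm* was the least at 5.42. In iFIRKO *Smc4* stayed first at 265 normalized reads per kilobase, followed by *Ckap2* at 229, *Prc1* at 204, *Kif20a* at 181 and *Top2a* at 160.2. *Kif20a* had been 11th in control at 71.6 and *Hmmr*, 19th in control at 47.0, was 7th in iFIRKO at 127. *Kif14* was last in iFIRKO at 6.64.

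In 4 lists of relatives, most of which also serve non-dividing cells, 0% to 5.00% of the tested genes were called higher. Among all genes tested, 4.46% were higher and 7.29% lower. Of 32 other kinesins, 20 were tested, 1 was higher and 1 lower, with a median log2 fold change of 0.01. The higher one was *Cenpe*, a mitotic motor that the kinetochore list below also holds, with 100.1 and 206 normalized reads (1.01, interval 0.55 to 1.57). The lower one was *Kif12*, with 58.0 and 25.4 (-1.07, interval -2.21 to -0.15). The 3 most abundant were the transport motors *Kif1b*, with 5906 and 5903 normalized reads, *Kif1c*, with 7864 and 7885, and *Kif13b*, with 3196 and 3189. Among the others, the log2 fold change was 0.15 for *Kif5b* (interval 0.01 to 0.29), 0.30 for *Kif3b* (interval 0.07 to 0.55), -0.42 for *Kif21b* (interval -0.81 to -0.03) and -0.04 for *Kif2a* (interval -0.33 to 0.25), the relative of *Kif2c* used in interphase as well. Of 18 genes of cohesin, condensin II, SMC5/6 and other topoisomerases, 0 were higher and 0 lower, with a median of -0.01. *Top2b*, the topoisomerase II of resting cells, had 1994 and 1903 (-0.07), *Smc1a* 2283 and 2416 (0.08) and *Smc3* 978 and 935 (-0.06). The condensin II subunits had log2 fold changes of 0.52 for *Ncapd3* (interval 0.25 to 0.79), 0.25 for *Ncapg2* (interval -0.16 to 0.68) and 0.23 for *Ncaph2* (interval 0.09 to 0.37). Of 24 centrosome and spindle pole scaffold genes, 1, *Tacc2*, was higher (0.60) and 0 lower, with a median of -0.07. Of 20 genes of the contractile ring and abscission machinery with roles in interphase, such as *Rhoa* (-0.04) and *Myh9* (0.17), 0 were higher and 1, *Sept6*, was lower (-0.93), with a median of 0.05.

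The other lists of mitotic genes also held more higher than lower members. Of 21 genes of the CDK1-cyclin B, Aurora and APC/C list, 14 were higher, 7 within the threshold and 0 lower, with a median log2 fold change of 0.97. It was led by *Ccnb1* (2.07), *Cdc20*, the activator of the anaphase-promoting complex (231 and 916 normalized reads, 1.97), and *Plk1* (122 and 444, 1.83). Each of these stood above *Hmmr*, the highest of the 38 genes. Of 29 kinetochore and spindle checkpoint genes, 11 were higher, 17 within the threshold and 1, *Dsn1*, lower (-0.86), with a median of 0.34, led by *Cenpf* (1.16), *Spc25* (1.11) and *Ska3* (1.08). Of 29 tested DNA replication genes, which act in S phase, 4 were higher and 2 lower, with a median of -0.02. The share higher was 13.8%, against 4.46% of all genes tested. The higher ones were *Rfc4* (0.79), *Rrm2* (0.74, interval 0.56 to 0.93), *Gins2* (0.67) and *Gins3* (0.66, interval -0.22 to 1.78). The lower ones were *Pola1* (-0.95) and *Tk1* (-0.88). CHR letters within 50 bases of the start were found in 9 of the 15 CDK1-cyclin B, Aurora and APC/C genes with a promoter window, in 12 of 25 kinetochore genes, in 4 of 23 other kinesins and in 2 of 24 replication genes. The E2F letters were found in 45.8% of those 24 replication genes. These lists were chosen with earlier results of these data known, and the difference between lists was not tested.

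**Figure D5:**
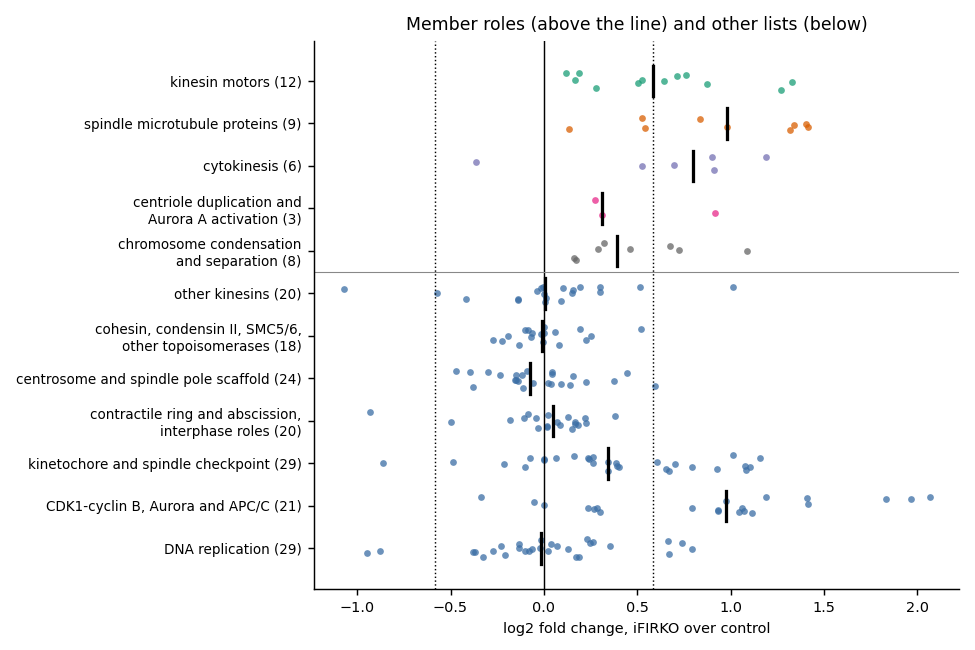
Log2 fold change (iFIRKO over control) of each tested gene in the 5 roles of the 38 genes (above the line) and in 7 other lists (below), with black bars at the median, the number of tested genes in brackets and dotted lines at 1.5-fold. The medians of the kinesin, spindle and cytokinesis roles run from 0.58 to 0.98, and that of the CDK1-cyclin B list is 0.97. Those of the centriole and condensation roles, 0.31 and 0.39, lie close to that of the kinetochore list, 0.34. The medians of other kinesins, cohesin and replication lie between -0.02 and 0.01.

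Marker lists of liver and infiltrating cell types differed in direction between the 2 libraries. Marker levels do not show which cells divide. Of 7 Kupffer cell and macrophage markers 0 were higher and 4 lower, and the list summed to 20769 normalized reads in control and 14163 in iFIRKO. The 6 B cell markers summed to 808 and 368, and the 8 T and NK cell markers to 260.4 and 138. The 6 neutrophil markers summed to 423 and 128, and the 7 sinusoidal endothelial markers to 11847 and 8840. Only 1 of the T and NK cell markers and 2 of the neutrophil markers were tested, and each was called lower. The 7 stellate cell markers summed to 11328 and 12384, and the 6 cholangiocyte markers to 2357 and 2036. The 5 adipocyte markers summed to 469.9 and 481, nearly all of it *Fabp4* (469.9 and 469), the only one tested. The 7 hepatocyte markers summed to 5075872 and 4775173, most of it *Alb* (4167154 and 3944155). Of these 7, 0 were higher and 1, *Apoa1*, was lower (-0.94). The 12 erythroid markers summed to 13643 and 27107, and of the 8 tested 6, the 4 globin genes, *Alas2* and *Slc4a1*, were higher. The other 2 tested, *Klf1* with 105 and 50.3 normalized reads and *Epor* with 60.2 and 37.4, were lower. The rest of the list was under the minimum, with *Gata1* listed at 0 in each library. The part of any of these cells in the mitotic reads was not tested.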

How the data were processed

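Liver mRNA of 1 control and 1 iFIRKO sample was sequenced as stranded libraries on a NovaSeq instrument. The authors deposited the log2 of a normalized read count for 53342 rows, with values of 1 or less at 0. The build is mm10 per the labels. The aligner, counter, annotation and scaling are not given in the sources used here. Values were returned to the linear scale, and duplicated symbols were kept as the row with the higher sum. The commonest low value (1.99 normalized reads in control, 2.01 in iFIRKO) was taken as 1 read pair. Of the values below 20 pairs, 44.6% and 45.2% were whole within 0.01 pair, so read pairs and their intervals are approximate.

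The 1.5-fold threshold is the one in the methods of the study. The minimum was a CPM of 1 and the pseudocount a CPM of 0.1, where a CPM of 1 is 41.8 normalized reads. No fold was given at 3 read pairs or fewer. The 38 members and the lists were chosen with earlier results of these data known, and the pairs of members compared were chosen after their values were seen (exact conditional odds ratio). Named from other lists are up to 3 genes by level and 3 by fold, with direct relatives. *Kif3b*, *Kif21b*, *Dsn1*, *Rrm2*, *Gins2*, *Gins3*, the erythroid genes and overlapping genes were named after their values were seen. Overlaps and exact shared stretches of 100 bases or more were taken from GENCODE M21 (GRCm38). Alternatives were other pseudocounts, minimums, scalings, a fold above 2 and summed duplicates. The calls and intervals were tested on simulated data. The simulated read pairs carried counting error only, as the interval assumes, and no variation between mice. Statistics used scipy 1.17.1 with numpy 2.4.6 and pandas 2.3.3 under Python 3.11.15, and figures matplotlib 3.10.9. A planned comparison of member proteins was not run.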

Additional observations from a re-analysis of the deposited data

How the results depend on the processing

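The 20 higher genes stayed 20 as a plain ratio, without a minimum, under 3 other scalings and with duplicates summed, with all 20 shared. There were 17 with a pseudocount of a CPM of 1 (without *Cep55*, *Kif11* and *Kif4*), 19 with the minimum in both libraries (without *Cep55*), 12 of 20 tested at a minimum CPM of 5, where fewer genes are tested, and 8 with a fold above 2. No alternative gave a lower gene. The median of the centriole and Aurora A genes fell from 0.31 to 0.23 with a pseudocount of a CPM of 1. The other medians stayed within the 95% binomial interval of the median over their genes (for the centriole and Aurora A genes, the range). Of 323 values of single members, 0 left their counting interval, but most had little room to do so. The minimums and summed duplicates left single folds unchanged, and the interval is that of the plain ratio. Over all genes, 597 were higher in the main setting, 371 with a pseudocount of a CPM of 1, 1957 without a minimum, 288 at a minimum CPM of 5 and 209 with a fold above 2. The other scalings moved the median of all genes by at most 0.012. No paired analysis was possible because the data hold 1 control and 1 iFIRKO library, and no replicate could be left out. Genes near 41.8 normalized reads have the widest intervals, and variation between mice is in none of them.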

Other observations

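Tubulins, most of them building blocks of the spindle and of interphase microtubules, were looked at in a list written after the files were opened. The list also holds *Tubg1* (0.38), which is in the centrosome list as well. Of 13 genes 11 were tested, 2 were more than 1.5-fold higher and 0 lower, and the median log2 fold change was 0.28. The share higher was 18.2%, against 4.46% of all genes tested. The higher ones were *Tubb2a*, with 8677 normalized reads in control and 13421 in iFIRKO (0.63, interval 0.57 to 0.68), and *Tubb2b*, with 1286 and 2111 (0.71, interval 0.57 to 0.86). *Tubb6* (0.57) and *Tuba1c* (0.52) were just under the threshold. *Tubb5* had 3692 and 3225 (-0.20, interval -0.29 to -0.10) and *Tuba8* 1297 and 925 (-0.49, interval -0.67 to -0.32). Tubulin genes are close copies of each other that can share reads, so their separate values are uncertain.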
